A study of Mus musculus with 53 samples.

Results

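The genes described here encode the proteasome of the mouse lung. They are all genes whose symbol in the array's probe annotation begins with Psma, Psmb, Psmc, Psmd or Psme and a number, apart from Psmb8 and Psmb9. The rule gave 42 genes, and 40 of them were among the 15030 genes tested in the whole series. Of the 42, 17 code for the core particle and 17 for the regulatory particle, 3 are assembly chaperones of the regulatory particle (Psmd5, Psmd9, Psmd10), and 3 are activators that cap the core in its place (Psme1, Psme3, Psme4). The remaining 2, Psmc3ip and Psme3ip1, match the rule by name only and are not proteasome subunits. Counts and medians over 40 genes include them. The core genes not tested were Psma8, a form known from the testis, and Psmb11, a form known from the thymus, and each was detected on at most 3 of 53 arrays. All 40 genes tested were detected on all 53 arrays. Psme2 is not among them, because its probe set is annotated to Psme2b as well.

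Small lobes of lung from 53 female C57BL/6 mice were hybridised to 1 Affymetrix array per mouse. Smoke mice breathed 4% mainstream cigarette smoke through the nose only, in sessions of 2 hours on 5 days of the week, and were taken after 2 weeks (6 mice), 12 weeks (5 mice) and 24 weeks (6 mice). Cessation mice breathed smoke for 12 weeks and then, for 12 weeks more, either forced air (smoke-to-forced-air, 6 mice) or room air (smoke-to-room-air, 6 mice), and were taken at 24 weeks. Forced air mice, the sham-exposed controls, went through the same sessions without smoke and were taken after 2, 12 and 24 weeks (6 mice each). A last group of 6 mice was untreated and carries the time 0. The labels' protocol has every cessation mouse go on to sham sessions, so what separates room air from forced air rests on the group labels. All groups are wild-type mice of 1 strain and 1 sex. The labels give the length of exposure but not the age of the mice, so age and length of exposure cannot be told apart.

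The proteasome is the protease that breaks down proteins tagged with ubiquitin. Its core particle is a barrel of alpha and beta rings, and Psmb5, Psmb6 and Psmb7 carry the constitutive active sites inside the beta rings. The regulatory particle sits on the barrel's ends: a base with 6 ATPases (Psmc1 to Psmc6) and ubiquitin-binding scaffolds (Psmd1, Psmd2, Psmd4) unfolds substrates, and a lid that holds the deubiquitinase Psmd14 removes the ubiquitin. Under interferon, Psmb8, Psmb9 and Psmb10 replace the constitutive active subunits to form the immunoproteasome, which serves antigen presentation. In mammals the transcription factors Nfe2l1 and, under oxidative stress, Nfe2l2 (NRF2) raise proteasome gene transcription. Cigarette smoke is an oxidant exposure of the lung, where oxidised proteins are among the proteasome's substrates.

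The values are MAS5 signals, which are fluorescence intensities on a linear scale, and log2 changes are of the signal plus 16. A gene was called when its Benjamini-Hochberg adjusted p, from limma over all 15030 genes of that comparison, was under 0.05. The share of all genes called is given beside the first count in each comparison. The arrays had the same trimmed mean signal of 150, and 67.5% to 76.2% of probe sets were detected per array, so the arrays shared 1 overall scaling. RNA integrity did differ: the 3′/5′ signal ratio of Gapdh, which is higher where RNA or its copy is shorter, had medians of 1.62 in smoke and 1.85 in forced air mice at 2 weeks and of 1.5 in smoke and 1.755 in forced air mice at 12 weeks, against 1.51 in smoke and 1.505 in forced air mice at 24 weeks and 1.57 in untreated mice. In whole tissue, fewer cells of a type and less RNA per cell cannot be told apart.

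The levels of both particles were highest in forced air mice at 2 weeks and lowest in forced air mice at 24 weeks. The mean log2 level of the 15 core genes tested, relative to the untreated mean, was 0.053 ± 0.053 in smoke mice and 0.168 ± 0.052 in forced air mice at 2 weeks (SD, n = 6 each). It was 0.068 ± 0.039 (SD, n = 5) in smoke mice and 0.038 ± 0.068 (SD, n = 6) in forced air mice at 12 weeks. At 24 weeks it was -0.031 ± 0.076 in smoke mice, -0.059 ± 0.033 in smoke-to-forced-air mice, -0.044 ± 0.029 in smoke-to-room-air mice and -0.130 ± 0.036 in forced air mice (SD, n = 6 each). No core level of a 24-week forced air mouse (-0.170 to -0.086) reached that of any 2-week forced air mouse (0.1 to 0.252).

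The mean level of the 17 regulatory genes was 0.048 ± 0.074 in smoke mice and 0.192 ± 0.059 in forced air mice at 2 weeks, 0.035 ± 0.054 in smoke mice and 0.038 ± 0.059 in forced air mice at 12 weeks, and -0.048 ± 0.062 in smoke mice and -0.151 ± 0.073 in forced air mice at 24 weeks. Smoke-to-forced-air mice lay at -0.088 ± 0.057 and smoke-to-room-air mice at -0.070 ± 0.041. Within a mouse, core minus regulatory level averaged between -0.024 (forced air, 2 weeks) and 0.033 (smoke, 12 weeks), with SDs of 0.036 to 0.078 in the 9 groups. At 12 weeks the core mean was 0.068 in smoke and 0.038 in forced air mice, a gap smaller than either SD (0.039 and 0.068). The highest forced air value there, 0.171, was that of replicate 1, with a Gapdh ratio of 2.42. The regulatory means at 12 weeks were nearly equal. No test was made of the particle means or of their difference, since the genes were chosen with results of these data known.

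**Figure D1:**
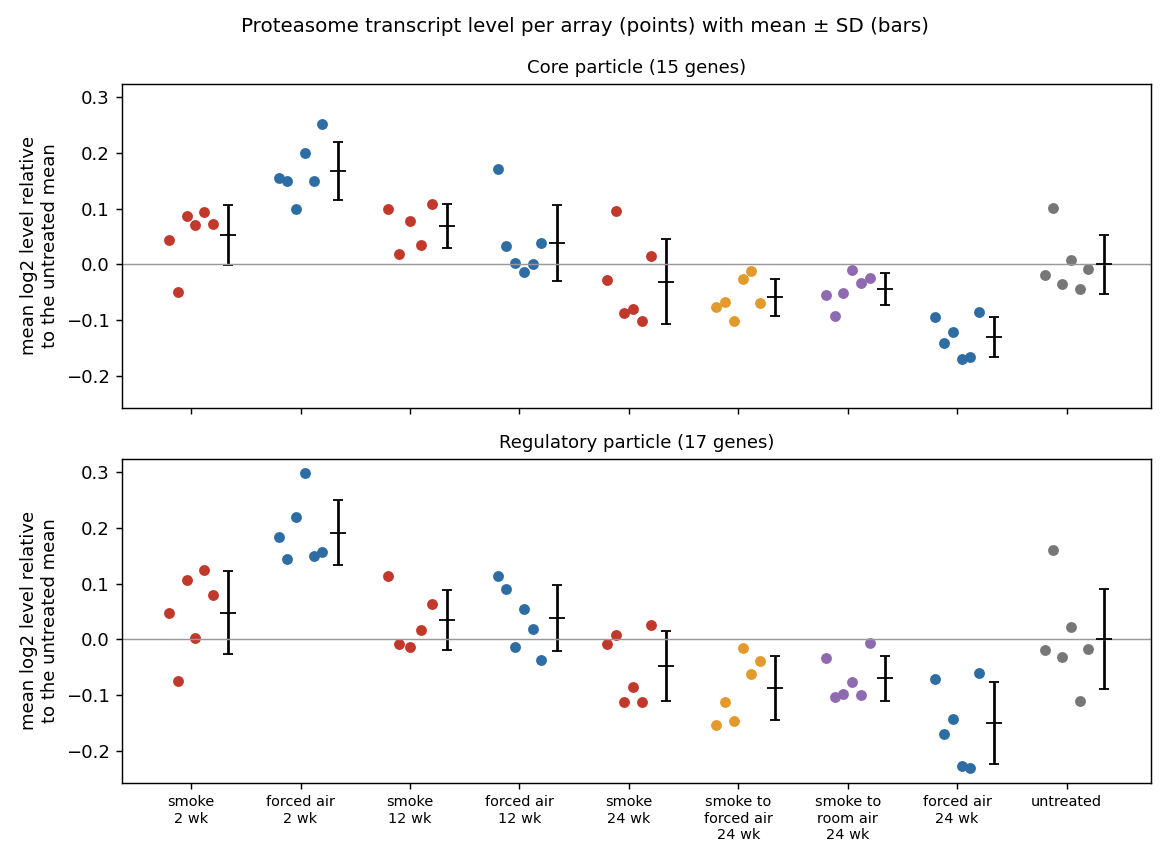
Mean log2 level of the 15 core genes (top) and 17 regulatory genes (bottom) on each array, relative to the untreated mean, by group; bars are group means ± SD. In both panels the forced air mice of 2 weeks stand highest (0.168 and 0.192) and the forced air mice of 24 weeks lowest (-0.130 and -0.151), with the smoke and cessation groups between them.

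The widest change was in the sham-exposed controls themselves. In forced air mice at 24 weeks 33 of the 40 genes tested were lower and 2 were higher than in forced air mice at 2 weeks. Of all genes 21.9% were called lower and 18.7% higher. Without Psmc3ip and Psme3ip1, which match by name only, 31 of 38 genes were lower and 2 higher. The median change was -0.33 over the 40 genes and 0.01 over all genes. In the core 13 of 15 genes fell (median -0.33), and in the regulatory particle 15 of 17 fell and 1 rose (median -0.36). On their brightest probe sets, all 6 ATPases of the base and all 3 of its scaffolds fell, as did 6 of 7 alpha subunits, 7 of 8 beta subunits and 6 of 8 lid subunits. Among the alpha subunits, dimmer probe sets of Psma1 (0.57 and 0.51) and Psma6 (0.54 and 0.31) were called higher. For the transcripts of these alpha subunits as a whole, no direction can be given. This comparison was added after the values had been seen.

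Psmc1, a base ATPase whose yeast counterpart helps open the gate of the core, had the deepest fall. Its signal was 407 to 555 (median 485) in forced air mice at 24 weeks and 691 to 833 (median 722) in forced air mice at 2 weeks, so all 6 later mice lay below all 6 earlier ones. The log2 change was -0.60 ± 0.07 (SE, adjusted p = 7.99e-09), a fold of 0.658. Psmd3, a lid subunit, read 150 to 201 (median 170.1) at 24 weeks and 206 to 360 (median 253) at 2 weeks, again without overlap, and changed by -0.57 ± 0.10 (adjusted p = 1.52e-05). Psmd6, also of the lid, read 760 to 893 (median 792) at 24 weeks and 1047 to 1400 (median 1161) at 2 weeks, a change of -0.54 ± 0.08 (adjusted p = 2.85e-07). The smallest adjusted p was that of Psmd2, the scaffold that receives ubiquitin shuttles, with 577 to 632 (median 618) at 24 weeks, 770.3 to 878 (median 846) at 2 weeks and a change of -0.44 ± 0.04 (adjusted p = 1.52e-11).

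A few members did not follow. Psme3, the PA28 gamma activator of the nucleus, rose by 0.41 ± 0.06 (adjusted p = 2.25e-07), with 428 to 478 (median 467) in forced air mice at 24 weeks and 310.4 to 382 (median 333) at 2 weeks. Its other kept probe set, which is dimmer, fell by 0.37 (adjusted p = 0.00213), so no direction can be given for the Psme3 transcript as a whole. Psmd11, a lid subunit, rose by 0.24 ± 0.07 (adjusted p = 0.00364) on its brightest probe set and fell by 0.25 (adjusted p = 0.000644) on another. Psmb7, the trypsin-like active subunit, was not called at 0.08 ± 0.13, with 913 to 1378 (median 1243) at 24 weeks and 834 to 1545 (median 1118) at 2 weeks, and the groups overlapped throughout.

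In smoke mice fewer of the 40 genes were called over the same interval than in forced air mice. At 24 weeks 7 of 40 were lower and 1 higher than in smoke mice at 2 weeks, with 8.58% of all genes called lower and 9.78% higher. The median change was -0.10, and 4 of the 40 changes were positive. Of the 8 calls 3 held under all 8 alternatives, and 3 held with each array left out in turn. This comparison was added to the design as well. Psmc1 read 448 to 556 (median 506) in smoke mice at 24 weeks and 514 to 639 (median 583) at 2 weeks, groups that overlapped, with a change of -0.19 ± 0.07 (adjusted p = 0.0599). The deepest called fall was that of Psmd9, a chaperone of the base, at -0.37 ± 0.11 (adjusted p = 0.0162), with 69.5 to 96.8 (median 77.9) at 24 weeks and 99.7 to 135 (median 104) at 2 weeks. That call was lost without smoke replicate 2 of the 2-week group, which held the highest Psmd9 signal (adjusted p = 0.0507).

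**Figure D2:**
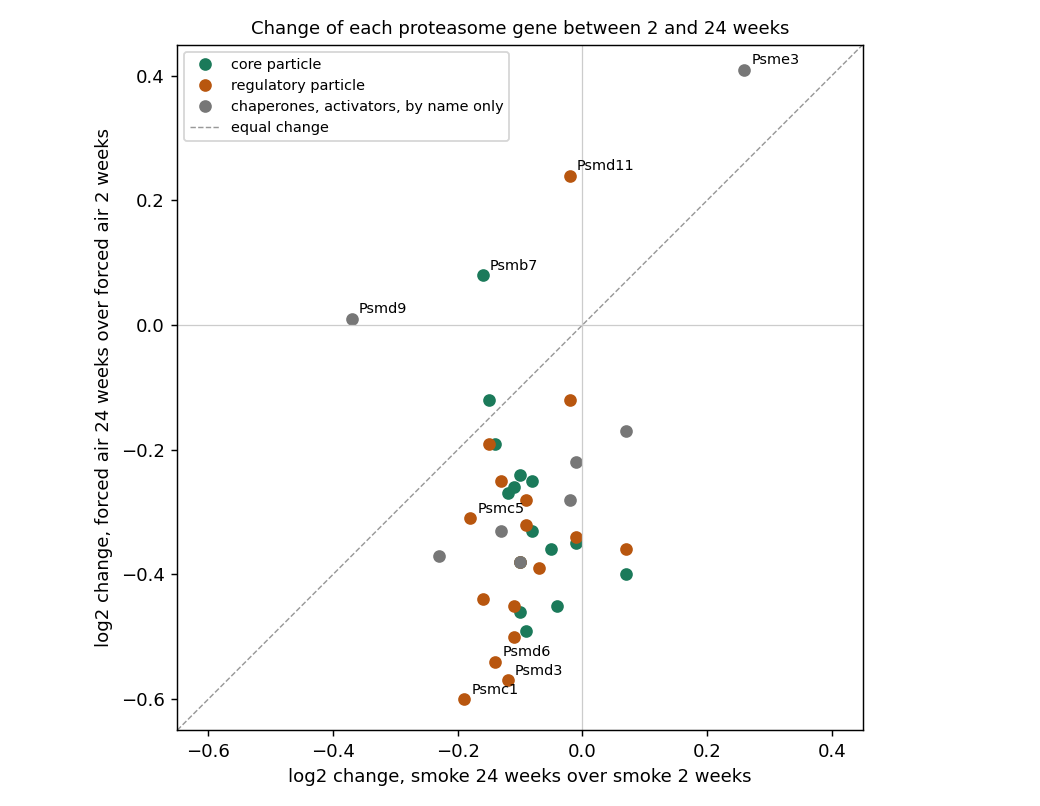
Log2 change of each of the 40 genes between 2 and 24 weeks in smoke mice (horizontal) and in forced air mice (vertical); the dashed line marks equal change. Most core and regulatory genes lie below the line, near -0.10 on the horizontal axis and near -0.33 on the vertical axis, and Psme3, Psmd11, Psmb7 and Psmd9 stand apart.

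The forced air mice of 2 and 24 weeks also differed in integrity ratio. With both 3′/5′ ratios in the model 27 genes were lower and 2 higher in forced air mice at 24 weeks than at 2 weeks (median -0.24), and with the 7 arrays of a Gapdh ratio over 1.8 left out 32 were lower and 2 higher (median -0.32). Of those 7 arrays 3 were forced air at 2 weeks, 3 forced air at 12 weeks and 1 untreated. The 6 forced air mice at 24 weeks had ratios of 1.46 to 1.53, below all 6 at 2 weeks (1.61 to 2.08), so the 2 groups do not overlap in this measure. The 3 forced air arrays of 2 weeks that were kept, at 1.61, 1.72 and 1.77, still lay above all those of 24 weeks. Neither fit can therefore tell group and Gapdh ratio apart. The part of RNA integrity in this fall was not tested.

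**Figure D3:**
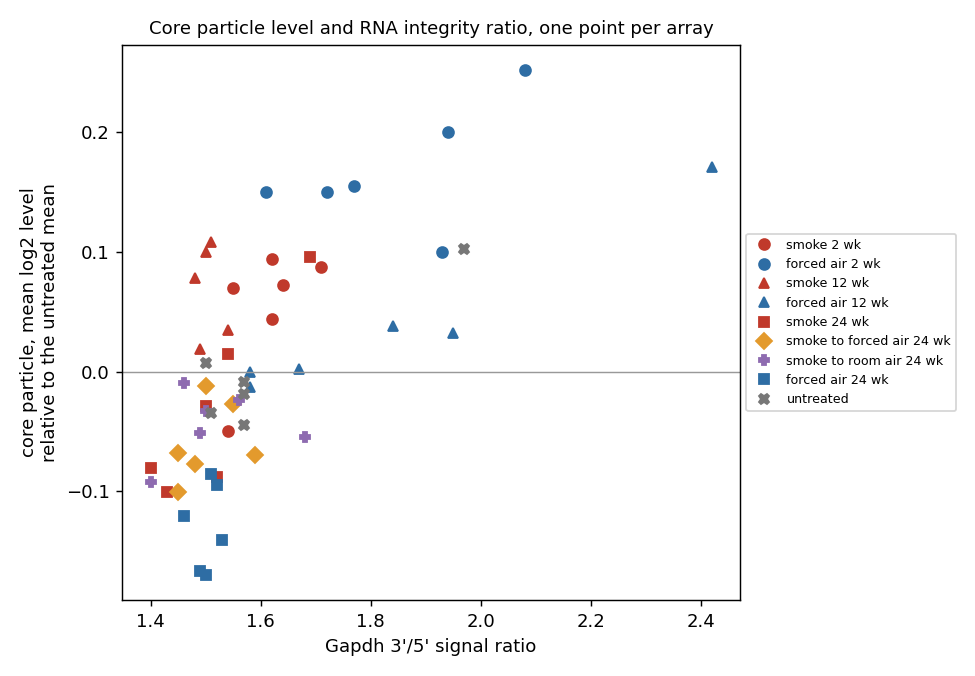
Core particle level (mean log2 of 15 genes relative to the untreated mean) against the Gapdh 3′/5′ ratio, 1 point per array. The highest core levels belong to forced air arrays of 2 weeks with ratios up to 2.08 and to a forced air array of 12 weeks at 2.42, while the 24-week groups lie between 1.40 and 1.69 at levels from -0.170 to 0.096.

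After 2 weeks of smoke, proteasome transcripts were lower than after 2 weeks of forced air. Of the 40 genes 11 were lower and 0 higher, with 3.70% of all genes called lower and 5.39% higher, and 25 had an unadjusted p under 0.05. The median change was -0.14, against 0.00 over all genes. In the core 4 of 15 fell (Psma2, Psma7, Psmb3, Psmb4; median of the core -0.15) and in the regulatory particle 7 of 17 (Psmc1, Psmc3, Psmd1, Psmd2, Psmd3, Psmd4, Psmd6; median -0.16). All 3 scaffolds of the base were among them. No chaperone or activator was called. The 8 lung epithelium markers moved with this comparison too, with 0 of 8 changes positive, 1 called lower and a median of -0.15, and their part in the result was not tested.

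Psmc1 read 514 to 639 (median 583) in smoke mice and 691 to 833 (median 722) in forced air mice, with all 6 smoke mice below all forced air mice. The change was -0.33 ± 0.07 (SE, adjusted p = 0.00144), a fold of 0.794. Untreated mice averaged 541, below the smoke mean of 582 and the forced air mean of 735. Psmb3, a non-catalytic beta subunit, was 794 to 977 (median 903) in smoke mice and 1039 to 1218 (median 1105) in forced air mice, also without overlap (-0.31 ± 0.08, adjusted p = 0.00504). Psmc3, another ATPase of the base, was 861 to 1020 (median 946) in smoke mice and 1068 to 1241 (median 1118) in forced air mice (-0.26 ± 0.07, adjusted p = 0.016). Here too the groups were separate.

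Psmd1, a scaffold of the base, read 501 to 649 (median 582) in smoke mice and 656 to 739 (median 676) in forced air mice (-0.25 ± 0.08, adjusted p = 0.0388), with no overlap. Psma2 of the alpha ring read 883 to 1193 (median 1001) in smoke mice and 1130 to 1505 (median 1214) in forced air mice (-0.29 ± 0.10, adjusted p = 0.0433), where 1 smoke mouse reached into the forced air range. Psmd6 read 879 to 1104 (median 972) in smoke mice and 1047 to 1400 (median 1161) in forced air mice (-0.26 ± 0.08, adjusted p = 0.0254). Psmd3 had the widest overlap of these, at 178 to 247 (median 216) in smoke mice and 206 to 360 (median 253) in forced air mice (-0.32 ± 0.10, adjusted p = 0.042).

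The number of genes called at 2 weeks was lower in both fits that took up RNA integrity. With both 3′/5′ ratios in the model 1 of 40 genes was lower and 0 were higher (median -0.05), and without the arrays of a ratio over 1.8 also 1 was lower and 0 were higher (median -0.10). Psmc1 was the gene called in both, and it was the single member called under all 8 alternatives, with a highest adjusted p of 0.0497 and changes of -0.34 to -0.22. Psmc1 has 1 kept probe set, so the alternative of another probe set gave it no second reading. Without forced air replicate 4, whose ratio was 1.94, 5 genes remained called. Leaving out the high-ratio arrays kept 3 of 6 forced air mice and all 6 smoke mice, so that fit had fewer arrays. Gapdh ratios were 1.54 to 1.71 in smoke mice and 1.61 to 2.08 in forced air mice, so they went partly with the group. The part of RNA integrity in the result was not tested.

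**Figure D4:**
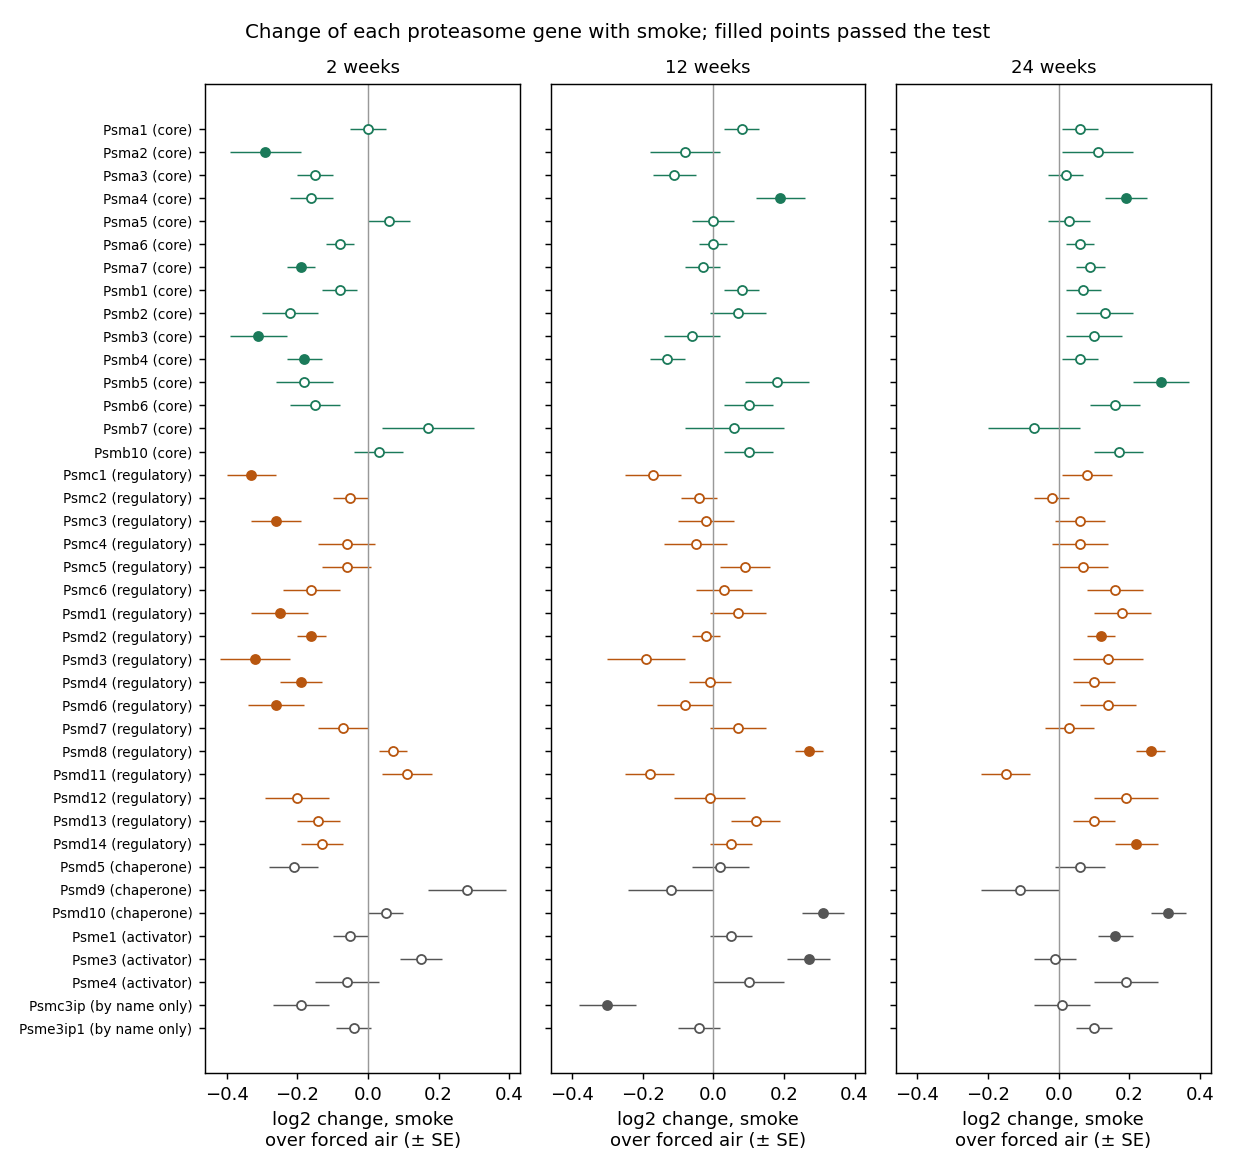
Log2 change of each tested gene, smoke over forced air, at 2, 12 and 24 weeks (± SE); green are core, orange regulatory and grey the other genes, and filled points passed the test. Most points lie left of 0 at 2 weeks (median -0.14) and right of 0 at 24 weeks (median 0.10), with Psmd8 and Psmd10 filled at 12 and 24 weeks.

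After 12 weeks of smoke 4 of the 40 genes were higher and 1 was lower than in forced air mice, with 12.5% of all genes called higher and 10.5% lower, so the share called was below that of all genes in both directions. The median change was 0.01. The genes that were higher were Psma4 of the alpha ring, Psmd8 of the lid, the chaperone Psmd10 and the activator Psme3. The gene that was lower was Psmc3ip, which matches the rule by name only. After 24 weeks 7 were higher and 0 lower, with 11.1% of all genes called higher and 6.67% lower, and the median was 0.10. These were Psma4, the chymotrypsin-like active subunit Psmb5, Psmd2, Psmd8, Psmd10, the deubiquitinase Psmd14 and Psme1, a subunit of the interferon-induced PA28 activator. In the core 1 of 15 was higher at 12 weeks (median 0.06) and 2 of 15 at 24 weeks (median 0.09). In the regulatory particle 1 of 17 was higher at 12 weeks (median -0.01) and 3 of 17 at 24 weeks (median 0.10). Of these 3, Psmd2 and Psmd14 averaged 667 and 634 in smoke mice at 24 weeks, close to the untreated means of 669.8 and 643. Forced air mice averaged 611 and 543 and were called lower than untreated mice in both genes. Psmd8 averaged 809 in smoke mice, 672 in forced air mice and 742 in untreated mice. Its forced air mice were called lower than untreated mice too (-0.14, adjusted p = 0.0156). Psma4, Psmd8 and Psmd10 were called at both times.

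Psmd8 is a lid subunit whose yeast counterpart joins the lid last. At 12 weeks its signals were 888, 888, 918, 927 and 978 in the smoke mice, and 725 to 793 (median 757) in forced air mice. At 24 weeks they were 755 to 869 (median 813) in smoke mice and 644 to 715 (median 667) in forced air mice. The groups did not overlap at either time. The change was 0.27 ± 0.04 at 12 weeks (adjusted p = 1.38e-06, fold 1.21) and 0.26 ± 0.04 at 24 weeks (adjusted p = 2.04e-06, fold 1.20). At 2 weeks smoke mice read 804 to 895 (median 862) and forced air mice 729.5 to 869 (median 833), a change of 0.07 ± 0.04 that was not called (adjusted p = 0.312).

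Psmd10, known as gankyrin, is a chaperone of the base ATPases that also binds the cell cycle kinase Cdk4 and the ubiquitin ligase Mdm2. At 12 weeks it read 182, 182, 201, 202 and 221 in the smoke mice and 150.3 to 165 (median 156) in forced air mice, a change of 0.31 ± 0.06 (adjusted p = 4.2e-05, fold 1.24). At 24 weeks it read 168 to 194 (median 186) in smoke mice and 135 to 151.5 (median 144.1) in forced air mice, a change of 0.31 ± 0.05 (adjusted p = 2.35e-05, fold 1.24). Smoke and forced air mice were again fully separate at both times. At 2 weeks both groups stood high, with 172 to 209 (median 179) in smoke mice and 163 to 189 (median 183) in forced air mice (0.05 ± 0.05, adjusted p = 0.665).

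Psmb5, the target of the drug bortezomib, read 496 to 674 (median 590.3) in smoke mice and 422 to 552 (median 466) in forced air mice at 24 weeks. It was higher by 0.29 ± 0.08 (adjusted p = 0.00966, fold 1.23), and 4 of 6 smoke mice lay above all forced air mice. Its mean was 589 in smoke mice, 477 in forced air mice and 563 in untreated mice. At 12 weeks its smoke signals were 515, 586, 616, 646 and 671, against 474 to 603 (median 519.8) in forced air mice, and the change of 0.18 ± 0.09 was not called (adjusted p = 0.132). At 2 weeks it was 474 to 628 (median 567) in smoke mice and 579.5 to 694 (median 638) in forced air mice (-0.18 ± 0.08, adjusted p = 0.183). The other constitutive active subunits were not called in smoke against forced air at any time. Psmb6, the caspase-like one, changed by -0.15 ± 0.07 at 2 weeks, 0.10 ± 0.07 at 12 weeks and 0.16 ± 0.07 at 24 weeks, and Psmb7 by 0.17 ± 0.13, 0.06 ± 0.14 and -0.07 ± 0.13. At 24 weeks Psmb6 read 723 to 932 (median 772) in smoke mice and 653 to 765 (median 711) in forced air mice, with 3 of 6 smoke mice above all controls.

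Psmd14 read 591 to 676 (median 639) in smoke mice and 498 to 589 (median 541) in forced air mice at 24 weeks, without overlap (0.22 ± 0.06, adjusted p = 0.00568). Psma4 read 476 to 547 (median 519) in smoke mice and 416 to 489 (median 436) in forced air mice at 24 weeks (0.19 ± 0.06, adjusted p = 0.0327), and 4 of 6 smoke mice lay above the controls. At 12 weeks its signals were 484, 523, 556, 582 and 583 in smoke mice and 419 to 558 (median 460.1) in forced air mice (0.19 ± 0.07, adjusted p = 0.0384). Psme1 read 1088 to 1416 (median 1174) in smoke mice and 1019 to 1127 (median 1070.0) in forced air mice at 24 weeks (0.16 ± 0.05, adjusted p = 0.0279). Psmd2 read 624 to 714 (median 668) in smoke mice and 577 to 632 (median 618) in forced air mice (0.12 ± 0.04, adjusted p = 0.0249).

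Psme3 at 12 weeks read 374, 399, 419, 443 and 445 in smoke mice and 287 to 359 (median 354) in forced air mice, a change of 0.27 ± 0.06 (adjusted p = 0.00078). On its dimmer probe set the change was 0.07 ± 0.10 (adjusted p = 0.706). Psmc3ip, a meiotic recombination factor that only shares the prefix, was lower by 0.30 ± 0.08 at 12 weeks (adjusted p = 0.0042), at 128, 132, 133, 136 and 148 in smoke mice and 153 to 189 (median 167) in forced air mice. At 24 weeks it changed by 0.01 ± 0.08.

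Psmd8, Psmd10 and Psmc3ip at 12 weeks, and Psmd8, Psmd10, Psmb5 and Psmd14 at 24 weeks, were called under all 8 alternatives and with each array left out in turn. Of these, Psmd8, Psmd10, Psmb5 and Psmd14 have 1 kept probe set each, so the alternative of another probe set gave them no second reading. Psma4 at 12 weeks was called in only 4 of the 11 fits that left out 1 array. Its 12-week call was also lost when only the compared groups were fitted (adjusted p = 0.119). Psma4 at 24 weeks lost its call without 7 of 12 arrays, Psmd2 without 4 and Psme1 without 5, and without smoke replicate 1 the count at 24 weeks was 4. At 12 weeks the fit with both integrity ratios in the model gave 11 genes higher and 1 lower (median 0.09). Without the high-ratio arrays 4 were higher and 1 lower, the same counts as in the main fit. At 24 weeks, where smoke and forced air mice had like ratios, the 2 fits gave 8 and 9 genes higher and 0 lower.

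The smoke effect at 24 weeks differed from that at 2 weeks in 17 of 40 genes, all shifted upward, with 3.87% of all genes called upward and 2.57% downward. The median difference was 0.24 over the proteasome genes and 0.01 over all genes. There were 7 of 15 core genes (median 0.24) and 9 of 17 regulatory genes (median 0.29). The largest were Psmb5 at 0.47 ± 0.12 (adjusted p = 0.0138), Psmd3 at 0.45 ± 0.15 (adjusted p = 0.049) and Psmd1 at 0.44 ± 0.11 (adjusted p = 0.0176), and the smallest adjusted p was that of Psmd2 (0.28 ± 0.06, adjusted p = 0.00265). This difference of effects shares its 4 groups with the comparisons above and is no independent evidence. With both integrity ratios in the model 2 genes differed (median 0.17), and without the high-ratio arrays 11 (median 0.23). Psma7 and Psmd2 were called under all alternatives. Without smoke replicate 2 of the 2-week group the count was 8.

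Between 12 and 2 weeks the effect differed in 2 genes, Psma4 (0.34 ± 0.09, adjusted p = 0.0381) and Psmd8 (0.21 ± 0.06, adjusted p = 0.0468), both upward, with 1.48% of all genes called upward and 0.719% downward. That count was 10 with the integrity ratios in the model, and it was as low as 0 with 1 array left out, forced air replicate 1 of the 2-week group. Between 24 and 12 weeks limma called 0 of 40 genes (0.0466% of all genes in either direction), and 6 had an unadjusted p under 0.05.

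**Figure D5:**
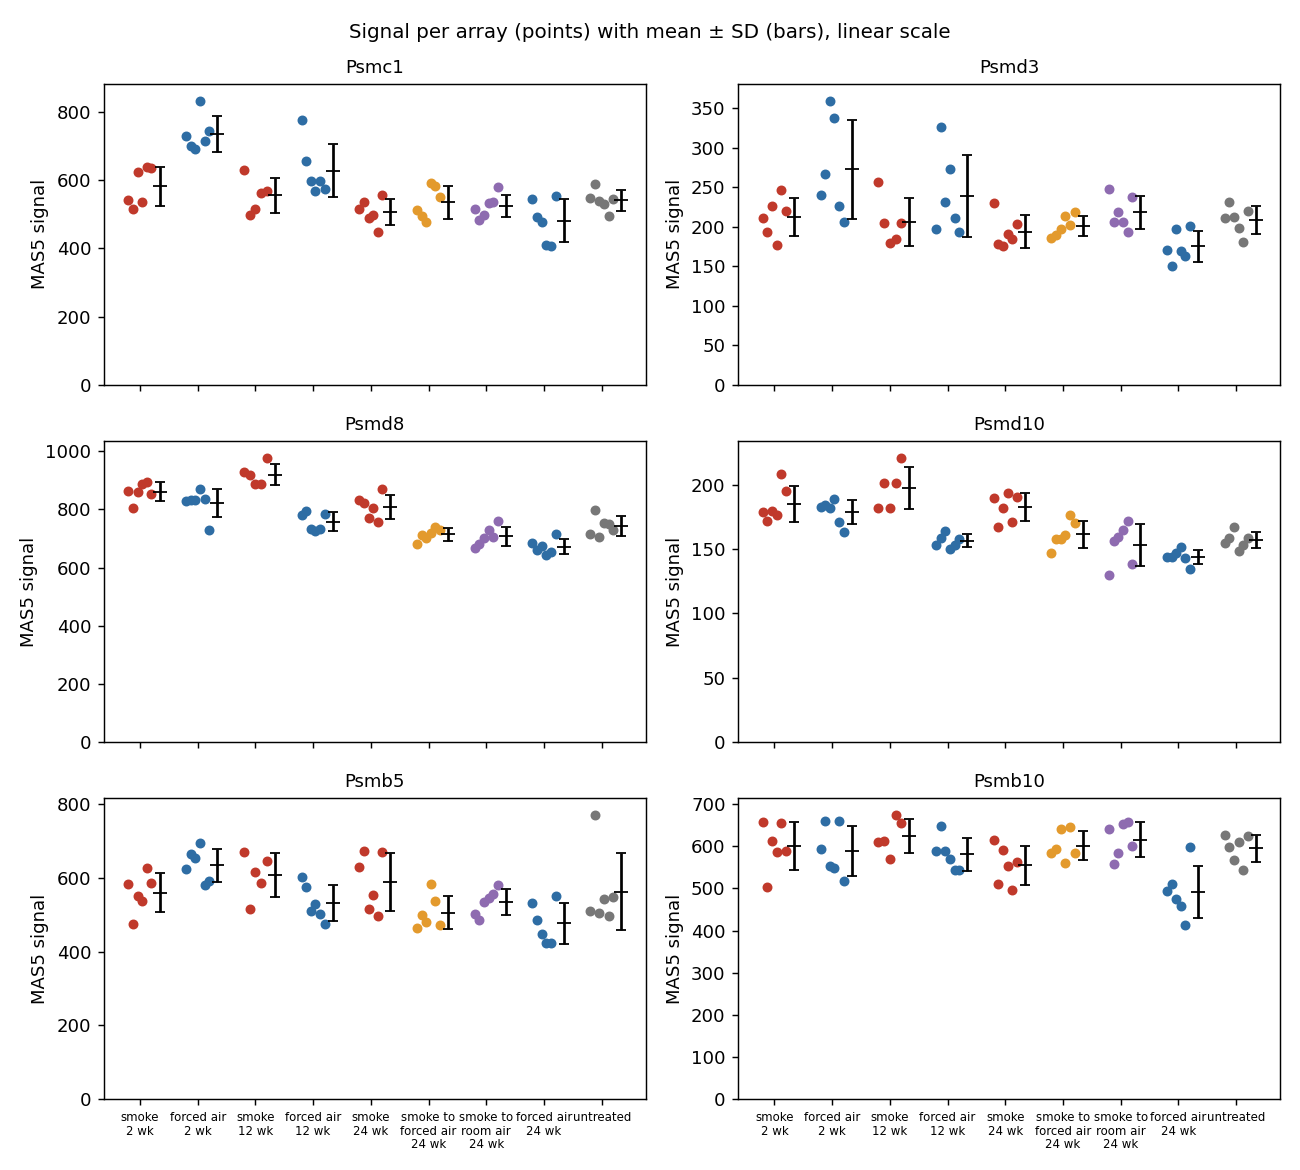
MAS5 signal of Psmc1, Psmd3, Psmd8, Psmd10, Psmb5 and Psmb10 on each array by group, on a linear axis from 0; bars are group means ± SD. Psmd8 and Psmd10 separate smoke from forced air at 12 and 24 weeks and lie lower in both cessation groups than in smoke mice of 24 weeks, while Psmb10 is lowest in forced air mice of 24 weeks.

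In the cessation groups Psmd8 and Psmd10 were lower than under continued smoke. Psmd8 read 680 to 739 (median 716) in smoke-to-forced-air mice and 667 to 759 (median 704) in smoke-to-room-air mice, against 755 to 869 (median 813) in mice that went on breathing smoke. The changes were -0.18 ± 0.04 (adjusted p = 0.00135) and -0.19 ± 0.04 (adjusted p = 0.000454), and all 6 mice switched to forced air and 5 of 6 switched to room air lay below every smoke mouse. Psmd10 read 147 to 177 (median 159) in smoke-to-forced-air mice and 129.8 to 172 (median 157.8) in smoke-to-room-air mice, against 168 to 194 (median 186) in smoke mice (-0.16 ± 0.05, adjusted p = 0.0369, and -0.23 ± 0.05, adjusted p = 0.00131).

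Psmd8 and Psmd10 were the only members called against continued smoke, 2 of 40 lower and 0 higher in each cessation group. Of all genes 7.45% were called lower and 7.68% higher in smoke-to-forced-air mice, and 9.07% lower and 9.12% higher in smoke-to-room-air mice. The call of Psmd10 in smoke-to-forced-air mice was lost when only the compared groups were fitted (adjusted p = 0.0858) and held in only 4 of the 12 fits that left out 1 array (highest adjusted p = 0.116). Against forced air at 24 weeks neither gene was called. Psmd8 differed by 0.08 ± 0.04 in smoke-to-forced-air mice (adjusted p = 0.291) and by 0.07 ± 0.04 in smoke-to-room-air mice (adjusted p = 0.244). Psmd10 differed by 0.15 ± 0.05 (adjusted p = 0.145) and 0.08 ± 0.05 (adjusted p = 0.384), and 5 of 6 smoke-to-forced-air mice lay above every forced air mouse, whose signals were 135 to 151.5.

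The medians of Psmb5 in the cessation groups lay between those of smoke and forced air. It read 465 to 582 (median 489) in smoke-to-forced-air mice and 486 to 581 (median 539.5) in smoke-to-room-air mice, against 422 to 552 (median 466) in forced air mice. Against continued smoke the change was -0.21 ± 0.08 (adjusted p = 0.0896) in smoke-to-forced-air mice and -0.13 ± 0.08 (adjusted p = 0.322) in smoke-to-room-air mice, so no difference passed the test on either side.

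Against forced air at 24 weeks the member that stood out was Psmb10, the inducible subunit that takes the place of Psmb7. It read 559 to 646 (median 589) in smoke-to-forced-air mice and 559 to 658 (median 621) in smoke-to-room-air mice, against 412 to 597 (median 485) in forced air mice. The changes were 0.29 ± 0.07 (adjusted p = 0.014) and 0.32 ± 0.07 (adjusted p = 0.000453), with 2 of 6 and 4 of 6 mice above every control. In continued smoke it was 496 to 615 (median 558), a change of 0.17 ± 0.07 that was not called (adjusted p = 0.0606). Forced air mice of 24 weeks were themselves low in Psmb10, at -0.27 ± 0.07 against untreated mice (adjusted p = 0.00399), whose signals were 544 to 626 (median 604). The 3 comparisons share the forced air mice, so they are not independent of one another. The call in smoke-to-forced-air mice was lost when only the compared groups were fitted (adjusted p = 0.0984), or without forced air replicate 5 or smoke-to-forced-air replicate 5.

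Psmb10 was the single member called in smoke-to-forced-air mice, where 1.46% of all genes were called higher and 0.526% lower. In smoke-to-room-air mice 4 of 40 genes were higher and 1 was lower, with 9.81% of all genes called higher and 5.31% lower. Beside Psmb10 these were Psmd3 (0.30 ± 0.10, adjusted p = 0.0432), Psmd14 (0.19 ± 0.06, adjusted p = 0.0166) and Psme1 (0.19 ± 0.05, adjusted p = 0.00965) upward, and Psme3 downward (-0.16 ± 0.06, adjusted p = 0.0494). Psmd14 read 596 to 664 in smoke-to-room-air mice and 498 to 589 in forced air mice. Psme1 read 1180.0 to 1273 in smoke-to-room-air mice and 1019 to 1127 in forced air mice, and neither gene overlapped between the groups. Without forced air replicate 5 the count was 2. The median change was 0.08 in smoke-to-room-air mice and, in smoke-to-forced-air mice, 0.07, and the medians of the core and the regulatory particle were 0.08 each in smoke-to-room-air mice and 0.07 and 0.06 in smoke-to-forced-air mice. Between the 2 cessation groups limma called 0 of 40 genes (0.971% of all genes in either direction), and 0 had an unadjusted p under 0.05.

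Against untreated mice, forced air at 2 weeks had 23 of 40 genes higher and 1 lower, with 10.9% of all genes called higher and 12.4% lower (median 0.18, against -0.03 over all genes). Of the 8 lung epithelium markers 4 were higher and 0 lower in the same comparison, all 8 were positive, and their median was 0.22. Their part in the result was not tested. In each particle 10 genes rose, of 15 in the core (median 0.20) and of 17 in the regulatory particle (median 0.22). Psmc1 led with 691 to 833 (median 722) in forced air mice and 494 to 589 (median 542) in untreated mice (0.43 ± 0.07, adjusted p = 2.46e-05). Psmb2 (0.40 ± 0.08, adjusted p = 0.000221), Psmd6 (0.38 ± 0.08, adjusted p = 0.000298) and the chaperone Psmd5 (0.36 ± 0.07, adjusted p = 0.000378) followed. The forced air mice here are those that set the comparison with smoke at 2 weeks, so the 2 results are not independent. With both integrity ratios in the model 10 genes were higher and 0 lower (median 0.12), and without the high-ratio arrays 17 were higher and 0 lower (median 0.19).

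At 12 weeks limma called 0 of 40 genes between forced air and untreated mice (5.74% of all genes in either direction), and 6 had an unadjusted p under 0.05. At 24 weeks 9 were lower and 1 was higher in forced air mice, with 9.40% of all genes called lower and 4.70% higher (median -0.14, against -0.02 over all genes). In each particle 4 genes fell. Psmc5 changed by -0.30 ± 0.07 (adjusted p = 0.00154), with 234 to 298 (median 257) in forced air mice and 284 to 411 (median 312) in untreated mice. Psmd14 changed by -0.24 ± 0.06 (adjusted p = 0.00452), with 498 to 589 (median 541) in forced air mice and 599.6 to 714 (median 633) in untreated mice, without overlap. Without untreated replicate 2, whose Gapdh ratio was 1.97, 5 genes were called.

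Genes that work with the proteasome were read from lists. Of 5 assembly factors of the core, only Pomp, which matures the beta rings, was called at 2 weeks of smoke (-0.26 ± 0.08, adjusted p = 0.0346), and 0 were called at 12 and 24 weeks. Pomp was also lower in forced air mice at 24 weeks than at 2 weeks (-0.43 ± 0.08, adjusted p = 3.16e-05), as were Psmg1 and Psmg3. Of 9 further subunits and partners 0 were higher and 1 was lower at 2 weeks of smoke (Sem1, a small lid subunit, -0.17 ± 0.06, adjusted p = 0.0428), 0 were called at 12 weeks, and 1 was higher at 24 weeks (Uchl5, a deubiquitinase, 0.17 ± 0.05, adjusted p = 0.0129). Of 5 genes for extraction by the ATPase Vcp only Faf2 was called under smoke, at 24 weeks (0.18 ± 0.06, adjusted p = 0.0347). Uba6, the single ubiquitin-activating enzyme of its list that was tested, was higher at 2 weeks (0.21 ± 0.06, adjusted p = 0.0198) and 12 weeks (0.21 ± 0.06, adjusted p = 0.0144). Its forced air mice were called lower than untreated mice at both times (-0.21 and -0.22). Median signals at 2 and 12 weeks were 386 and 389 in smoke mice and 332 and 334 in forced air mice, against 390 in untreated mice.

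Of 7 regulators of proteasome genes 0 were called at 2 weeks of smoke. At 12 weeks Mafg, a small Maf partner, was higher (0.24 ± 0.07, adjusted p = 0.0109) and Keap1, which holds NRF2 down, was lower (-0.20 ± 0.06, adjusted p = 0.0168). At 24 weeks Mafk was lower (-0.26 ± 0.09, adjusted p = 0.0322). The transcripts of Nfe2l1 changed by -0.07 ± 0.07, -0.04 ± 0.07 and 0.05 ± 0.07 at 2, 12 and 24 weeks, and those of Nfe2l2 by -0.01 ± 0.09, -0.14 ± 0.09 and -0.02 ± 0.09, and none of these was called. These factors act as proteins, and protein was not measured.

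The enzymes that NRF2 is known to induce were measured beside the proteasome. Of 10 tested, 2 were higher and 1 lower at 2 weeks of smoke, 5 higher and 1 lower at 12 weeks, and 6 higher and 0 lower at 24 weeks, with a median change of 0.31 at 24 weeks, where the 40 proteasome genes had 0.10. Slc7a11, the cystine transporter, was higher by 1.16 ± 0.13, 1.53 ± 0.14 and 1.39 ± 0.13 at 2, 12 and 24 weeks. Gclc, the first enzyme of glutathione synthesis, was higher by 0.28 ± 0.07, 0.44 ± 0.07 and 0.34 ± 0.07. Gpx2 was lower at 2 weeks (-0.46 ± 0.08, adjusted p = 4.17e-05) and at 12 weeks (-0.40 ± 0.08, adjusted p = 0.000267). In each cessation group 5 of the 10 were lower than in continued smoke and 0 higher.

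Of 10 genes of the immunoproteasome and of class I antigen supply 0 were called at 2 weeks of smoke, 2 were higher at 12 weeks and 3 at 24 weeks, and none was lower. Against forced air 2 were higher in smoke-to-forced-air mice and 4 in smoke-to-room-air mice. Psmb8 was higher in smoke mice at 12 weeks (0.30 ± 0.11, adjusted p = 0.0335) and 24 weeks (0.34 ± 0.10, adjusted p = 0.0132), and in smoke-to-room-air mice (0.37 ± 0.10, adjusted p = 0.00821). Psmb9 was higher in smoke-to-forced-air mice (0.49 ± 0.12, adjusted p = 0.0173) and smoke-to-room-air mice (0.51 ± 0.12, adjusted p = 0.00135), as Psmb10 was. Tap1, which carries peptides into the endoplasmic reticulum, was higher in both cessation groups as well (0.61 ± 0.15, adjusted p = 0.0182, and 0.66 ± 0.15, adjusted p = 0.00105). In forced air mice at 24 weeks against untreated mice 1 of the 10 changes was positive (median -0.10, against -0.02 over all genes). Of the 10 genes 1 was called lower, with 9.40% of all genes called lower. Psmb8 was called lower there (-0.31 ± 0.10, adjusted p = 0.0323), and Tap1 (-0.41 ± 0.15, adjusted p = 0.0507) and Psmb9 (-0.27 ± 0.12, adjusted p = 0.119) were not called. In neither cessation group was any of the 10 called against continued smoke.

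Markers of several cell types moved with smoke. The 7 alveolar macrophage markers tested had a summed signal of 6380 to 6858 (median 6755) in smoke mice and 4331 to 5168 (median 4464) in forced air mice at 2 weeks, 7000 to 7775 (median 7354) in smoke mice and 4158 to 5327 (median 4717) in forced air mice at 12 weeks, and 6714 to 8895 (median 7111) in smoke mice and 4063 to 6167 (median 4462) in forced air mice at 24 weeks. Of these 7 markers 5, 5 and 6 rose at 2, 12 and 24 weeks, and of 8 monocyte markers 5, 6 and 7. All 5 markers of cycling cells rose at each time. The macrophage sums were 4427 to 5381 in smoke-to-forced-air mice and 4216 to 5041 in smoke-to-room-air mice. The 8 markers of lung epithelium had 1 called lower and 0 higher at 12 weeks of smoke (median -0.15), as at 2 weeks, and had summed signals of 11679 to 17453 (median 12612) in smoke mice and 12226 to 13585 (median 13227) in forced air mice at 24 weeks, with 0 called. In smoke-to-room-air mice 4 of 5 neutrophil and 4 of 7 lymphocyte markers were higher than in forced air mice. Every marker tested was detected on 1 or more arrays of each group. The part of these cells in the changes of Psmd8, Psmd10, Psmb5 and Psmb10 was not tested.

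Between 2 and 24 weeks of forced air the marker lists moved as follows. Lung epithelium had 6 of 8 markers lower and 0 higher (median -0.25), endothelium and stroma 3 lower and 2 higher of 8 (median -0.19), and alveolar macrophages 1 lower and 1 higher of 7 (median -0.08). The fall of the proteasome genes thus came with lower epithelial markers, whose summed signal was 12226 to 13585 (median 13227) at 24 weeks and 13881 to 21022 (median 14985) at 2 weeks. Their part in the fall was not tested. In smoke against forced air, endothelium and stroma had 2 markers higher and 3 lower at 2 weeks, 2 higher and 6 lower at 12 weeks and 0 called at 24 weeks.

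Other probe sets on the array measured 21 of the genes a further time. Of 41 such probe sets 19, 16 and 15 had the sign of the brightest one in smoke against forced air at 2, 12 and 24 weeks, and none was called in either direction together with it. Psmd8, Psmd10, Psmb5, Psma4, Psmd14, Psmb10, Psmd3 and Psmc1 had 1 kept probe set each, so their changes had no second reading. Psmb3 had a second one, which changed by -0.21 ± 0.09 at 2 weeks of smoke (adjusted p = 0.143) and by -0.39 ± 0.09 in forced air mice at 24 weeks against 2 weeks (adjusted p = 0.000294). In that last comparison 22 of the 41 had the sign of the brightest one. There 11 were called the same way as the brightest and 6 the opposite way, of Psma1, Psma6, Psmd11 and Psme3. For forced air at 2 weeks against untreated mice 19 of the 41 had that sign, with 3 called the same way and 3 the opposite way, of Psma6 and Psme3.

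The sequences upstream of 4 of these genes are shown because Psmd8 and Psmd10 were higher in smoke than in forced air mice at 12 and 24 weeks, Psmb5 at 24 weeks, and Psmc1 had the lowest change of smoke against forced air at 2 weeks. They are the 250 bases before the transcription start in RefSeq's mouse assembly GRCm38.p6, 5′ to 3′ on the gene's strand. Capitals mark matches, on either strand, to 3 motifs: the antioxidant response element core TGACNNNGC, which NRF2 and Nfe2l1 bind with a small Maf, the CCAAT box (CCAAT, or ATTGG on the other strand), and the GC box GGGCGG. None of the marked matches overlaps another. Psmd8 lies at chr7:29180674-29180923, Psmd10 at chrX:140956712-140956961 and Psmb5 at chr14:54617996-54618245, all on the minus strand, and Psmc1 at chr12:100109952-100110201 on the plus strand.
Psmd8: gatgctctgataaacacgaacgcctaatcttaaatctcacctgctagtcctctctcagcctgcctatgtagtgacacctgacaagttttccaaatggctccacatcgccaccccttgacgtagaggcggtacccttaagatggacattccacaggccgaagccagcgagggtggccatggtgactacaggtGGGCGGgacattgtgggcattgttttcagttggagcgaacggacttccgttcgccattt
Psmd10: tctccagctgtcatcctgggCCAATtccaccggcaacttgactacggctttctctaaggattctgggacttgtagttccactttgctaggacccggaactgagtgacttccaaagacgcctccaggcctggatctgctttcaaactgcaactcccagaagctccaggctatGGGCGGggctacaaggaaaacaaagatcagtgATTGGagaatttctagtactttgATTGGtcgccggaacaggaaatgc
Psmb5: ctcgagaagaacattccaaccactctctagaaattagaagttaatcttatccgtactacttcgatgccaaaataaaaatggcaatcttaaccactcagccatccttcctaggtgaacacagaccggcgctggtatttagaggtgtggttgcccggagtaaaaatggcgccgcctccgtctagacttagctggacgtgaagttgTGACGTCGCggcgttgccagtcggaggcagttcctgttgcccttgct
Psmc1: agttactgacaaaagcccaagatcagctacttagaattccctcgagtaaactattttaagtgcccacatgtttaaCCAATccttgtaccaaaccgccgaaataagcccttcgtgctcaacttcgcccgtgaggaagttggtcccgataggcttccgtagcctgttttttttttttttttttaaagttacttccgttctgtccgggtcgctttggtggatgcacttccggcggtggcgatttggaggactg
The antioxidant core stands in Psmb5 alone among the 4, as TGACGTCGC, 38 bases before the start. Psmd8 has 1 GC box, 53 bases before its start, Psmd10 has 3 CCAAT boxes and 1 GC box, and Psmc1 has 1 CCAAT box. A promoter was found for 34 of the 40 genes. The antioxidant core was in 5 of the 34, Psmb5, Psmb6, Psmc6, Psmd9 and Psmd12, and in 10.1% of all 27025 promoters. The CCAAT box was in 13 of 34 and in 34.5% of all promoters, and the GC box in 19 of 34 and in 32.9%. By particle, the antioxidant core was in 2 of 12 core and 2 of 14 regulatory promoters, the CCAAT box in 6 of 12 and 4 of 14, and the GC box in 5 of 12 and 9 of 14. A match is a run of letters and not a shown binding site.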

How the data were processed

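Lung RNA from 53 mice was measured on 1 array per mouse. Per the labels' protocols, samples were randomised before extraction and 50 ng of total RNA was amplified. The deposited values are MAS5 signal intensities, scaled by the authors so that the mean signal without the lowest and highest 2% of probe sets is 150 on every array, as tested on the files. Each deposited signal has a detection p-value from the same authors' processing. The submitters' processing notes name MAS5 without a version. The authors' table of the whole series held the same values (largest difference 0).

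Groups were taken from the labels. Control probe sets and those with several gene symbols (932) or none (9160) were left out of the gene tests, as were probe sets that failed the detection filter; to pass, 1 or more groups needed a detection p-value under 0.05 in 50% of their arrays or more (35615 of 45101 passed). Each gene was read from its brightest remaining probe set, and signal levels of different genes were not set against each other. Signals plus a pseudocount of 16 were put on the log2 scale and fitted with limma 3.58.1 in R 4.3.3, with 1 mean per group over all 53 arrays and eBayes with trend. The 14 comparisons of the design and 2 added ones were two-sided contrasts of this fit, adjusted by Benjamini-Hochberg over 15030 genes. The code was tested on simulated data. Python 3.11.15 with pandas 2.3.3, numpy 2.4.6 and matplotlib 3.10.9 served for promoters and figures.

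Any member may be named. Values by sample are given for up to 12 genes of largest change called in smoke against forced air, for Psmb5, Psmb6, Psmb7 and Psmb10, and for members called in other comparisons, which were picked by size after their values had been seen. The members and gene lists were chosen with earlier results of these data known. The alternatives were quantile normalisation, a pseudocount of 1, no detection filter, the probe set with the largest spread, only the compared groups, the 3′/5′ ratios of Gapdh and actin as covariates, 3 ranges of the last number of the sample title as a block (its meaning is not stated), each array left out in turn, and, chosen after seeing the data, the arrays with a Gapdh ratio over 1.8 left out. The number of arrays limits the precision.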

Additional observations from a re-analysis of the deposited data

Results flagged for a closer look

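Of 378 sets of 1 gene or particle mean in 1 group, 30 (7.94%) held an array far from the rest of its group by Dixon's criterion, where chance gives about 1 in 20. Of the 30 values, 9 are high values of untreated replicate 2, whose Gapdh 3′/5′ ratio was 1.97, and 5 are high values of forced air replicate 1 at 12 weeks, whose ratio was 2.42.

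In untreated mice the high signals were 946.4 for Psma7, 1510 for Psmb4, 770.9 for Psmb5, 921.5 for Psmb6, 197.3 for Psmc3ip, 1452 for Psmc4, 411.1 for Psmc5 and 610.2 for Psmd11, and a high core particle mean of 0.102 belonged to the same mouse. Psmd9 had a low signal of 63.36 in another untreated mouse. In forced air mice at 12 weeks the high signals were 1589 for Psma2, 1015 for Psmb6, 757.8 for Psmd14 and 1488 for Psme1, with a core mean of 0.171, all of replicate 1. The low ones were 269.8 for Psmd5 and 287 for Psme3.

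In forced air mice at 2 weeks Psma3 at 1716, Psma6 at 1378 and Psmc1 at 832.8 stood high, and Psma4 at 517.2 and Psmd8 at 729.5 stood low. In smoke mice the high signals were 134.8 for Psmd9 and 270.6 for Psme3ip1 at 2 weeks, and 1430 for Psma3 and 1416 for Psme1 at 24 weeks. The low ones were a core mean of -0.05 at 2 weeks and, at 12 weeks, 1175 for Psmb4 and 219.8 for Psmd13. In smoke-to-room-air mice Psma3 stood high at 1235.

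The log2 smoke effect differed between times, by limma's test of the difference, in 19 cases. At 12 against 2 weeks it was higher by 0.34 for Psma4 and 0.21 for Psmd8. At 24 against 2 weeks it was higher in the core by 0.35 for Psma4, 0.28 for Psma7, 0.36 for Psmb2, 0.41 for Psmb3, 0.24 for Psmb4, 0.47 for Psmb5 and 0.31 for Psmb6. In the regulatory particle it was higher by 0.41 for Psmc1, 0.32 for Psmc3, 0.44 for Psmd1, 0.28 for Psmd2, 0.45 for Psmd3, 0.29 for Psmd4, 0.40 for Psmd6, 0.19 for Psmd8 and 0.34 for Psmd14, and for the chaperone Psmd10 by 0.26. With both integrity ratios in the model 2 of the 17 differences at 24 weeks were called.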

How the results depend on the processing

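No paired analysis was possible because each mouse stands in 1 group and the labels tie it to no mouse of another group. The middle number of the sample titles recurs between groups, its meaning is not stated, and it was not used as a block. The counts of proteasome genes called moved by over 1.5 times in these cases. With quantile normalisation they were 8 in smoke against forced air at 12 weeks, 2 in smoke-to-forced-air against forced air and 1 in forced air at 12 weeks against untreated. The effect at 12 against 2 weeks gave 1 with a pseudocount of 1, 1 without a detection filter, 1 with the probe set of largest spread, 0 with only the compared groups, 10 with the integrity ratios and 4 with the title ranges. Without a detection filter smoke-to-room-air against forced air gave 3. With the probe set of largest spread forced air at 24 weeks against untreated gave 6 and smoke at 24 against 2 weeks 4. With only the compared groups the counts were 0 in smoke-to-forced-air against forced air, 1 in smoke-to-forced-air against continued smoke, 5 in forced air at 24 weeks against untreated and 5 in smoke at 24 against 2 weeks. With the integrity ratios they were 1 and 12 in smoke against forced air at 2 and 12 weeks, 2 in smoke-to-forced-air against forced air, 10 in forced air at 2 weeks against untreated and 2 for the effect at 24 against 2 weeks. With the title ranges forced air at 12 weeks against untreated gave 2 and smoke at 24 against 2 weeks 15. Without the arrays of a ratio over 1.8, smoke against forced air at 2 weeks gave 1, smoke-to-forced-air against forced air 2 and the effect at 24 against 2 weeks 11.

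With each array left out in turn, smoke against forced air gave 5 to 13 calls at 2 weeks, 4 to 6 at 12 weeks and 4 to 9 at 24 weeks. Against forced air, smoke-to-forced-air gave 0 to 1 and smoke-to-room-air 2 to 5. Against continued smoke they gave 1 to 3 and 2 to 3, and against each other 0 throughout. Forced air against untreated gave 18 to 27, 0 to 2 and 5 to 14 at 2, 12 and 24 weeks. The effect gave 0 to 4 at 12 against 2 weeks, 8 to 23 at 24 against 2 weeks and 0 at 24 against 12 weeks. Forced air at 24 against 2 weeks gave 35 to 36 and smoke at 24 against 2 weeks 4 to 9.

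The direction turned in 20 cases, 19 of them on the probe set of largest spread, which is another, dimmer probe set of the gene, and the cause was not tested. The log2 changes there were 0.43 for Psmd11 and -0.39 for Psmd7 in smoke against forced air at 12 weeks, and -0.35 for Psme4 in smoke-to-room-air against forced air. For forced air at 2 weeks against untreated they were -0.50 for Psma1, -0.47 for Psma6, -0.13 for Psmb1, -0.30 for Psmc6, -0.08 for Psmd4 and 0.39 for Psme3, and at 24 weeks 0.08 for Psma1. For forced air at 24 against 2 weeks they were 0.57 for Psma1, 0.54 for Psma6, 0.04 for Psmc2, 0.11 for Psmc6, -0.37 for Psme3 and 0.30 for Psme4. For smoke at 24 against 2 weeks they were 0.21 for Psma1, 0.02 for Psmc2 and -0.14 for Psme3. With the integrity ratios Psmd6 in smoke against forced air at 12 weeks became 0.17.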
